A study of Mus musculus with 8 samples.

Results

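The 6 genes described here encode the mouse receptors for the constant part of IgG and the chain through which they signal. They are the activating receptors *Fcgr4*, *Fcgr1*, and *Fcgr3*, the inhibitory receptor *Fcgr2b*, the shared signaling chain *Fcer1g*, and the neonatal Fc receptor *Fcgrt*. They were taken by symbol from a table of 54146 genes, and all 6 were among the 17095 genes with enough counts to be tested (10 counts or more in 4 or more of the 8 libraries). Bulk RNA-Seq had been made from macrophages of epididymal white adipose tissue (eWAT), with 1 FCGR4+ and 1 FCGR4- library from each of 4 mice. The mice were C57Bl6, and the study used males. All had been given a high fat diet without limit for 24 weeks, and in the 2 weeks that followed the amount of food was reduced by 30% (short-term caloric restriction, stCR), so both populations share this history, and the labels give no age. Live cells were gated as CD45+, CD3-, B220-, Ly6G-, SiglecF-, and CD11b+, and were then divided with an antibody to the FCGR4 protein. Mice 1 and 2 carried animal identifiers with a different prefix from mice 3 and 4, and what the prefix stands for was not stated.

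Fcγ receptors are the sensors by which macrophages read antibody-coated particles. The activating receptors hold no signaling motif of their own in mice and pair with the γ chain made from *Fcer1g*, whose ITAM recruits the kinase SYK once the receptors are cross-linked. The inhibitory receptor FCGR2B carries an ITIM instead, which recruits the phosphatase SHIP1 and raises the threshold for activation, so the balance of activating to inhibitory receptors sets how a macrophage responds to IgG. FCGR1 binds monomeric IgG with high affinity, FCGR3 and FCGR4 bind mainly immune complexes, and the neonatal Fc receptor, which pairs with β2-microglobulin, works inside endosomes, where it returns IgG and albumin to the cell surface.

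The cells sorted as FCGR4+ held about 3-fold more *Fcgr4* mRNA, and they also held more of the other activating receptors and of the γ chain in every mouse, by smaller amounts that did not pass the test. *Fcgr2b* and *Fcgrt* differed by less than their spread over mice. The threshold was an adjusted p of 0.1 in edgeR's paired quasi-likelihood test over 17095 genes. Of these genes, 1.27% passed in either direction, 0.0819% with a higher and 1.19% with a lower level in FCGR4+ cells. *Fcgr4* was the only member of the 6 to pass. Since the cells were divided by FCGR4 protein, its difference checks the labels and is no independent result. Of all genes tested, 8.38% had the higher level in the FCGR4+ library of all 4 mice, and among the members this held for *Fcgr4*, *Fcgr1*, *Fcgr3*, and *Fcer1g*. In bulk RNA, fewer cells that express a gene and less RNA of it per cell cannot be told apart.

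*Fcgr4*, the receptor used for the sort, lies on the plus strand of chromosome 1 (chr1:171018920-171029761, mm10). In FCGR4+ libraries its level was 215, 139, 208, and 236 normalized CPM (counts scaled to the library total and the TMM factor) in mice 1 to 4. In the FCGR4- libraries of the same mice it was 48.5, 52.2, 81.1, and 82.9 normalized CPM. The populations did not overlap, and the lowest FCGR4+ library, that of mouse 2, was above the highest FCGR4- library. The means were 199.6 ± 42.4 and 66.1 ± 18.3 normalized CPM (SD, n = 4), a fold of 3.05 (95% interval 2.29 to 4.04) and a log2 fold change of 1.61 (SE 0.173, adjusted p = 0.0162). The transcript was also present in FCGR4- cells, with at least 1774 counts in every library. The log2 ratio was widest in mouse 1, at 2.15, and lay between 1.36 and 1.51 in the other mice. Marker genes of nonclassical monocytes, blood cells that also carry FCGR4, summed to 129 to 411 normalized CPM in FCGR4+ and 188 to 237 in FCGR4- libraries, with the higher sum in FCGR4+ cells in mouse 1 alone. Of the 10 tested, 2 passed as higher in FCGR4+ cells, *Cd300e* and *S1pr5*, but 0 did without mouse 1 or without mouse 2 and 1 without mouse 4. Over all genes tested, calls as higher numbered 14 (0.0819%), and 2 without mouse 1, 5 without mouse 2, and 3 without mouse 4. *S1pr5* had a low level, at 2.09 ± 3.35 in FCGR4+ and 0.119 ± 0.171 normalized CPM in FCGR4- cells. The log2 fold change was above 0 for 6 of the 10 nonclassical monocyte markers and below 0 for 4. None of these markers was at 0 in all libraries, and their part in the *Fcgr4* difference was not tested.

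*Fcgr1*, which encodes the high-affinity IgG receptor, lies apart from the other Fcγ receptors on the minus strand of chromosome 3 (chr3:96282909-96293969). Its level in FCGR4+ libraries was 154.5, 139, 384, and 532 normalized CPM in mice 1 to 4. In FCGR4- libraries it was 99.1, 76.7, 294, and 413 normalized CPM. The gene was higher in FCGR4+ cells of every mouse, but the spread between mice exceeded the difference between populations. The log2 fold change was 0.56 (SE 0.142, 95% interval 0.23 to 0.89), with an adjusted p of 0.202 in edgeR's test. DESeq2's paired fit, the tool that the study's methods name, gave the same size of difference with an adjusted p of 0.00936. Under that tool 5.99% of all genes passed, and with no filter on low counts, where the adjusted p of *Fcgr1* was 0.0608, 2.77% passed.

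Most of the variation in *Fcgr1* lay between animals. Its level averaged 406 normalized CPM in the 4 libraries of mice 3 and 4 and 117 in those of mice 1 and 2, a fold of 3.46, and the groups did not overlap. All 4 libraries of mice 3 and 4 were above all 4 of mice 1 and 2 for 8.49% of the genes tested, and for 0.953% by at least the fold of *Fcgr1*. The mouse accounted for 90.6% of the sum of squares of its log2 level and the population for 8.34%, against medians over all tested genes of 57.0% and 9.49%. Markers of classical monocytes were also higher in mice 3 and 4, with sums of 2762 to 4390 normalized CPM against 703 to 1189 in mice 1 and 2, and were the only marker list of 12 whose sums did not overlap between these pairs of mice. Their part in the level of *Fcgr1* was not tested.

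*Fcgr3*, the activating receptor of low affinity and the most abundant Fcγ receptor transcript in these cells, lies 21412 bases from *Fcgr4* on the minus strand (chr1:171051174-171064935). It was measured at 777, 914, 805, and 744 normalized CPM in the FCGR4+ libraries of mice 1 to 4. The FCGR4- libraries held 691, 664, 667, and 685 normalized CPM. All 4 FCGR4+ libraries lay above all 4 FCGR4- libraries, which held for 0.883% of the genes tested. The difference was small, with means of 810 ± 74.0 and 677 ± 13.2 normalized CPM (SD, n = 4) and a log2 fold change of 0.26 (SE 0.128, 95% interval -0.05 to 0.56, adjusted p = 0.563). Of its sum of squares, 71.6% went with the population and 9.48% with the mouse, the opposite order to *Fcgr1*.

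**Figure D1:**
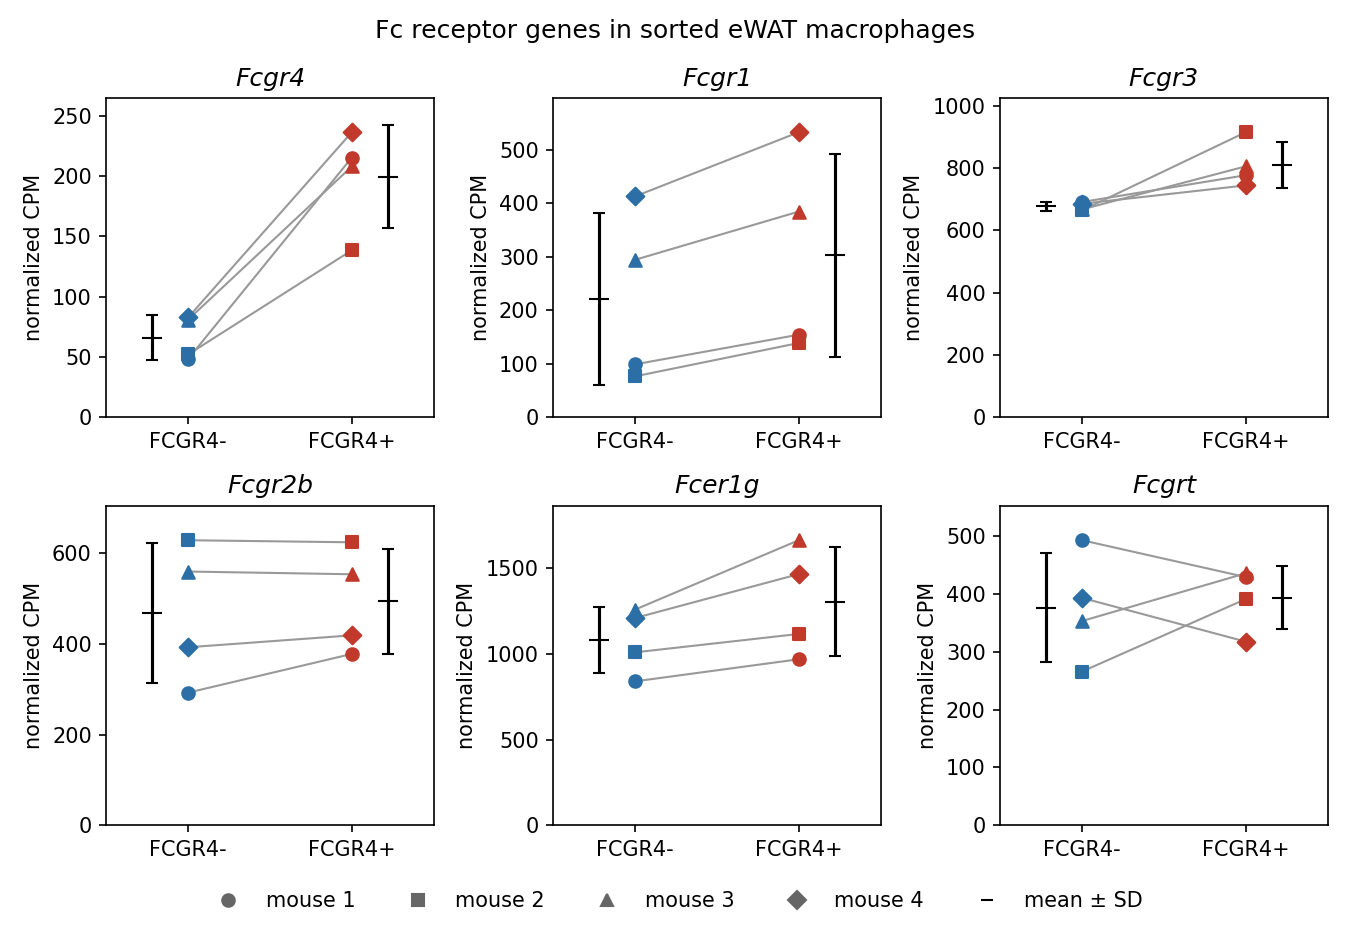
Normalized CPM (y axes) of the 6 genes in the FCGR4- and FCGR4+ library of each mouse, with 1 symbol per mouse, lines joining libraries of the same mouse, and mean ± SD at the sides (n = 4). *Fcgr4* and *Fcgr3* libraries do not overlap between populations, mice 3 and 4 lie above mice 1 and 2 for *Fcgr1* and *Fcer1g*, and the lines of *Fcgrt* cross.

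The 3 activating receptors were the members that stood higher in FCGR4+ cells together with their γ chain, so the bases before their start sites are shown (RefSeq, GRCm38.p6, each 150 bases 5′ to 3′ on the strand of its gene). Capitals mark matches, on either strand, to GAGGAA (PU.1 type, read as TTCCTC on the printed strand), GAAANNGAAA (IRF type), TTCNNNGAA (STAT type), and TTGCNNAA (CEBP type). The windows are chr1:171018770-171018919 for *Fcgr4*, chr3:96293970-96294119 for *Fcgr1*, and chr1:171059404-171059553 for *Fcgr3*, whose RefSeq start lies inside the deposited gene span. The *Fcgr4* window ends at the GENCODE start, 6 bases before the RefSeq start, and distances are counted from the RefSeq start.
Fcgr4: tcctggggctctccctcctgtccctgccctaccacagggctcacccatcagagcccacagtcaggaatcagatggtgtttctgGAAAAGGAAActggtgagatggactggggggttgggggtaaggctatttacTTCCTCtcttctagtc
Fcgr1: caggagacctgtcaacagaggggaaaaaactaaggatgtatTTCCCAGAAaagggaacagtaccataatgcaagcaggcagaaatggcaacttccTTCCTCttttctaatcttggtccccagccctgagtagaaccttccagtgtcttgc
Fcgr3: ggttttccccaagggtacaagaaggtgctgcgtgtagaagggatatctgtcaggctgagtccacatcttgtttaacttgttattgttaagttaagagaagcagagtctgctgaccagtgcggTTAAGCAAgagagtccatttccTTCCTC

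Of 7 motifs searched over the 250 bases before and 50 bases after each start, the PU.1 type letters were in the windows of the 3 activating receptors and in none of the other 3 members, against 28.3% of all 32817 windows. *Fcer1g*, which was also higher in FCGR4+ cells of 4 of 4 mice, was among the members without these letters. The PU.1 type letters began 22 bases before the RefSeq start in *Fcgr4*, 55 in *Fcgr1*, and 6 in *Fcgr3*. The IRF type letters were found in *Fcgr4* alone among the members (73 bases before the RefSeq start, 3.43% of all windows), and the STAT type letters in *Fcgr1* alone (109 bases before, 8.29% of windows). The CEBP type letters were found in *Fcgr3* and *Fcgrt* (10.8% of windows). TGANTCA (AP-1 type, 7.81% of windows) was in no member, while CANNTG (E-box, 72.3%) and GGGNNNNNCC (NF-kB type, 50.8%) were in 4 members each. The capitals do not overlap each other, and such matches describe letters, not bound sites. *Spi1*, the gene of PU.1, was measured at 272 ± 15.7 normalized CPM in FCGR4+ and 282 ± 28.0 in FCGR4- cells (log2 fold change -0.052, adjusted p = 0.902).

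*Fcgr2b*, the only inhibitory member, lies next to the activating receptors on chromosome 1 (chr1:170958617-170976547, minus strand). Its level was 378, 625, 554, and 419 normalized CPM in FCGR4+ libraries and 293, 629, 560, and 393 in FCGR4- libraries of mice 1 to 4. Mouse 1 alone had a clear excess in FCGR4+ cells, with a log2 ratio of 0.37, while the ratios of the other mice lay between -0.02 and 0.09. The log2 fold change was 0.11 (SE 0.132, 95% interval -0.20 to 0.42, adjusted p = 0.781), and the mouse accounted for 93.5% of the sum of squares. Unlike *Fcgr1*, the level did not follow the animal prefix, since mice 2 and 3 were high and mice 1 and 4 were low.

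*Fcgr2b* and *Fcgr3* share part of their coding sequence, which bears on both values because a read pair with several places in the genome was counted at every place. Of the 50-base words of *Fcgr3* transcripts, 9.58% also occur in *Fcgr2b*, while 6.95% of the words of *Fcgr2b* occur in other genes, 2.92% in *Fcgr3*. None of the words of *Fcgr4*, *Fcgr1*, *Fcer1g*, or *Fcgrt* occur in another gene (GENCODE M21). The longest identical run is printed because the counts on it cannot be assigned to either gene. It spans 129 coding bases, of which 102 end exon 3 and 27 begin exon 4 of both genes (chr1:170967980-170968081 and chr1:170966674-170966700 in *Fcgr2b*, chr1:171057691-171057792 and chr1:171054167-171054193 in *Fcgr3*, minus strand). The exon 3 part is in capitals.
Fcgr2b and Fcgr3: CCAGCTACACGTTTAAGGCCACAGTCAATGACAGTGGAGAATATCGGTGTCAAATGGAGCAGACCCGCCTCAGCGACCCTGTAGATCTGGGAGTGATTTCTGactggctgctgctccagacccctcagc

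*Fcer1g*, which encodes the γ chain, is the last member of the chromosome 1 group (chr1:171229572-171234365, minus strand). Its level was 969, 1117, 1664, and 1466 normalized CPM in the FCGR4+ libraries of mice 1 to 4. The FCGR4- libraries held 840, 1010, 1259, and 1210 normalized CPM. FCGR4+ cells were higher in every mouse, with a log2 fold change of 0.26 (SE 0.122, 95% interval -0.03 to 0.54, adjusted p = 0.544). As for *Fcgr1*, all 4 libraries of mice 3 and 4 were above all 4 of mice 1 and 2, here by a fold of 1.42. The log2 levels of these genes had a Pearson r of 0.84 over the 8 libraries, the highest among the 15 pairs of members. The libraries share mice, so this r describes the libraries.

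The γ chain also serves the high-affinity IgE receptor of mast cells and basophils, and there the other subunits went the opposite way. *Fcer1a*, the IgE-binding α chain, was at 0.624, 0.437, 0.0319, and 0.643 normalized CPM in FCGR4+ libraries of mice 1 to 4. In FCGR4- libraries it was at 144, 69.0, 10.7, and 22.7 normalized CPM. Every FCGR4- library was far above every FCGR4+ library, with a log2 fold change of -6.95 (SE 0.515, adjusted p = 0.006). *Ms4a2*, the β chain, had 60, 9, 0, and 0 counts in FCGR4+ libraries and 1557, 214, 133, and 162 counts in FCGR4- libraries (log2 fold change -5.52, SE 0.651, adjusted p = 0.0216). Without mouse 1 the adjusted p of *Ms4a2* was 0.102, and with no replicate block, where 0.281% of all genes passed, it was 0.362. Per kb of gene length the level of *Fcer1a* was 14.99%, 5.99%, 0.745%, and 1.64% of that of *Fcer1g* in the FCGR4- libraries of mice 1 to 4, and at most 0.0564% in FCGR4+ libraries. Both genes are also markers of mast cells and basophils, whose 12 markers summed to 396 to 2192 normalized CPM in FCGR4- and 14.5 to 31.2 in FCGR4+ libraries. Of the 11 tested, 10 passed the threshold as lower in FCGR4+ cells (9 to 11 with each mouse left out), and *Mcpt8* had at most 3 counts in every FCGR4+ library. How much of the *Fcer1g* level of FCGR4- cells came with these markers was not tested.

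Markers of other cells also differed, although the gate was set to leave out T cells (CD3), B cells (B220), neutrophils (Ly6G), eosinophils (SiglecF), and cells without CD45, such as fibroblasts. Neutrophil markers summed to 124 to 563 normalized CPM in FCGR4+ and 391 to 2486 in FCGR4- libraries, with 6 of 10 tested past the threshold, each lower in FCGR4+ cells. The counts that follow are also of markers past the threshold. T and NK cell markers (4.23 to 11.4 against 20.6 to 63.7 normalized CPM, 7 of 11), dendritic cell markers (26.3 to 32.2 against 68.4 to 135, 5 of 12), and fibroblast markers (140 to 264 against 349 to 1415, 5 of 8) also had calls, each lower in FCGR4+ cells. With a mouse left out, T and NK cell calls fell to 2 without mouse 1, 1 without mouse 2, and 3 without mouse 4. Dendritic cell calls fell to 2 without mouse 2, fibroblast calls to 0 without mouse 1 and 1 without mouse 3 or mouse 4, and neutrophil calls stayed at 4 to 6, the lowest without mouse 4. Over all genes tested, 1.19% passed as lower. Calls in either direction over all genes fell from 217 to 84, 127, 163, and 91 without mice 1 to 4. The log2 fold change was below 0 for 10 of 10 neutrophil and 11 of 11 T and NK cell markers tested. The same held for 11 of 12 dendritic cell and 8 of 8 fibroblast markers, while 49.7% of all genes tested were above 0. B cell markers (16.4 to 26.4 against 12.2 to 50.7) had 1 of 7 past the threshold, and classical monocyte markers (715 to 2908 against 703 to 4390) had 2 of 7, each lower in FCGR4+ cells, among them *Vcan*. The B cell call was lost without mouse 1, 2, or 4, and those of classical monocytes fell to 0 without mouse 2 or mouse 4 and to 1 without mouse 3. Eosinophil markers (12.2 to 17.8 against 12.8 to 39.5), endothelial markers (5.84 to 19.6 against 11.1 to 16.2), and adipocyte markers (109 to 179 against 67.5 to 143) had none past the threshold. Most of the adipocyte sum was *Fabp4*, at 138 ± 34.8 and 87.2 ± 33.3 normalized CPM, which was named after its values were seen. Of the 8 adipocyte markers, 6 had a log2 fold change below 0 and 2 above, with a median of -0.37. In FCGR4+ libraries *Pax5*, *Cr2*, *Eomes*, *Epx*, and *Prg2* had at most 3 counts each, and no marker was at 0 in all 8 libraries. As for the label of the cells, all 13 macrophage markers were tested, and their sum of 24876 to 55750 normalized CPM exceeded that of every other list in all 8 libraries. That sum was higher in FCGR4+ cells of 4 of 4 mice, with no marker past the threshold. The part of these lists in the Fc receptor differences was not tested.

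*Fcgrt*, the neonatal Fc receptor gene, lies on chromosome 7 (chr7:45092990-45103851, minus strand). Its level was 429, 391, 435, and 317 normalized CPM in FCGR4+ libraries and 492, 266, 353, and 393 in FCGR4- libraries of mice 1 to 4. It was higher in FCGR4+ cells of mice 2 and 3 and lower in those of mice 1 and 4. The log2 fold change of 0.09 (SE 0.179, 95% interval -0.33 to 0.51, adjusted p = 0.875) had no stable sign, at -0.00207 with library size alone as the scaling and at -0.0755 without mouse 2. *B2m*, whose product is the partner chain of the neonatal receptor and of class I MHC, averaged 2210 ± 403 in FCGR4+ and 1655 ± 340 normalized CPM in FCGR4- cells. It was higher in 4 of 4 mice (log2 fold change 0.42, SE 0.132) with an adjusted p of 0.322, and of 0.0523 in DESeq2.

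**Figure D2:**
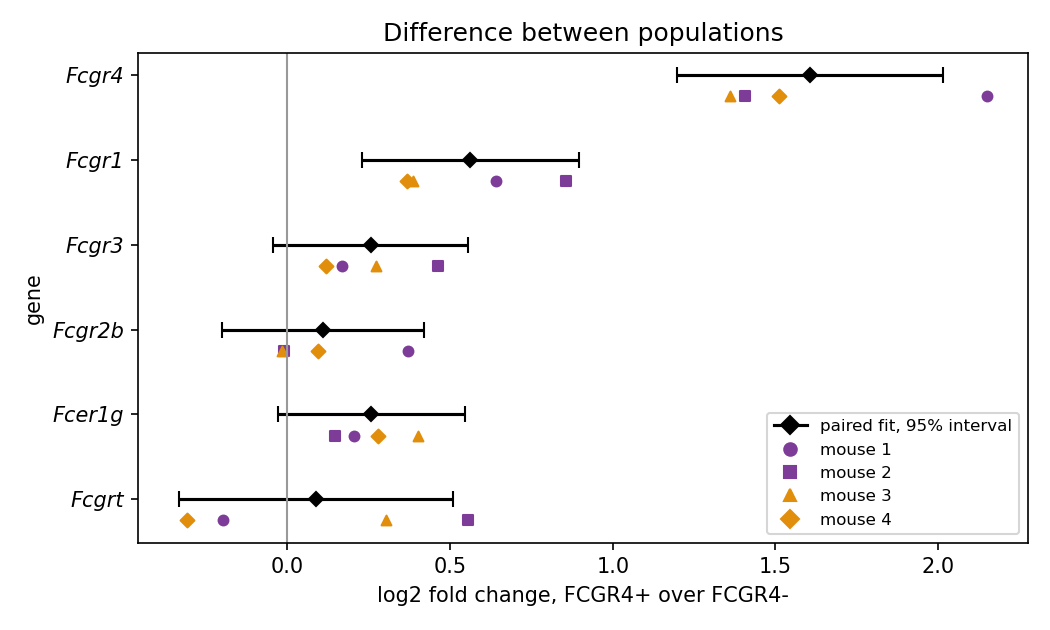
Log2 fold change of FCGR4+ over FCGR4- cells (x axis) for each gene, with the paired edgeR estimate and its 95% interval as a black diamond and bar, and the log2 ratio of each mouse below it (mice 1 and 2 purple, mice 3 and 4 orange). The intervals of *Fcgr4* (1.20 to 2.02) and *Fcgr1* (0.23 to 0.89) lie above 0, and those of the other 4 genes include 0.

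The levels of the members were compared with one another per kb of the deposited gene length, as normalized CPM per kb. *Fcer1g* was the highest, with a mean of 1364 over 8 libraries, rank 56 among the genes tested. *Fcgr3* followed at 428 (rank 145) and *Fcgrt* at 183 (rank 390), and the libraries of these 3 genes did not overlap with one another, while *Fcgrt* and *Fcgr4* did. *Fcgr4* (106), *Fcgr1* (101), and *Fcgr2b* (83.2) could not be ordered over all 8 libraries, since these overlapped. Within populations *Fcgr4*, whose level the sort sets, was above *Fcgr2b* in 4 of 4 FCGR4+ libraries (ratios of 1.02 to 2.62) and below it in 4 of 4 FCGR4- libraries (0.382 to 0.972). With the lengths of coding transcripts the FCGR4+ ratios were 0.626 to 1.61. *Fcgr4* was below *Fcgrt* in 4 of 4 FCGR4- libraries and in 3 of 4 FCGR4+ libraries. The deposited length of *Fcgr2b*, 5790 bases, joins all of its transcripts, and with the longest coding transcript (3544 bases) its mean was 136, above those of *Fcgr4* and *Fcgr1*.

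**Figure D3:**
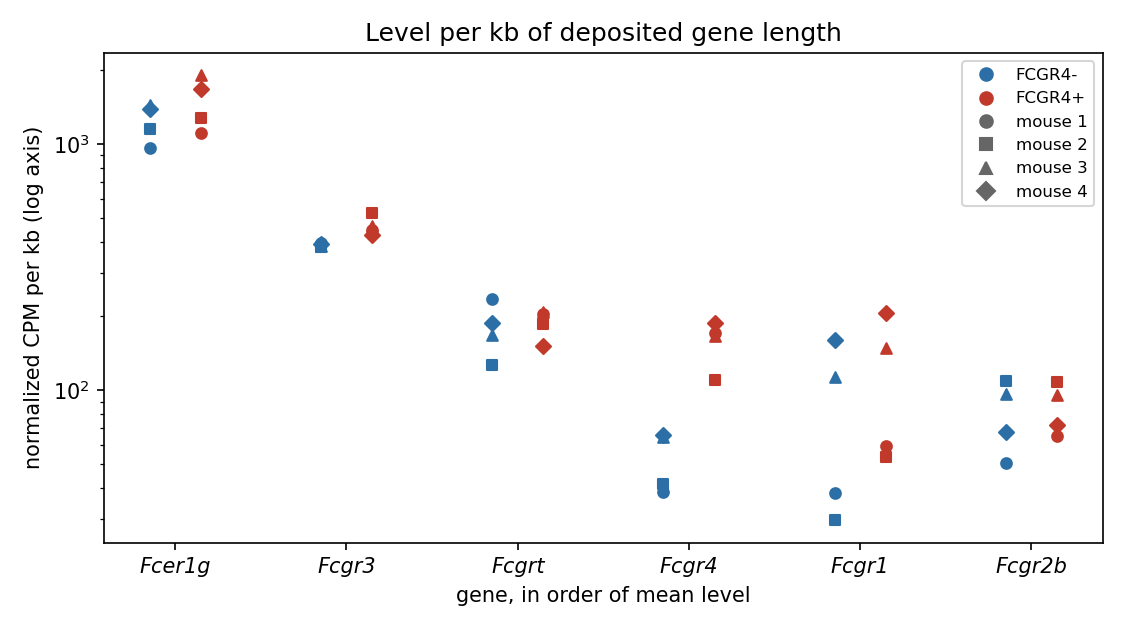
Normalized CPM per kb of deposited gene length (y axis, log scale) of the 6 genes in order of mean level, with 1 symbol per mouse, FCGR4- libraries in blue and FCGR4+ libraries in red. *Fcer1g* and *Fcgr3* stand clear above the others, and the points of *Fcgr4*, *Fcgr1*, and *Fcgr2b* overlap.

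The balance of activating to inhibitory receptor transcripts was higher in FCGR4+ cells of 4 of 4 mice with *Fcgr4* in the sum and of 3 of 4 without it. The summed level per kb of *Fcgr4*, *Fcgr1*, and *Fcgr3* over that of *Fcgr2b* was 10.4, 6.40, 8.13, and 11.4 in FCGR4+ and 9.38, 4.17, 5.81, and 9.13 in FCGR4- libraries of mice 1 to 4. The populations overlapped, with mice 1 and 4 high in both, but the ratio moved upward in 4 of 4 mice, from a mean of 7.13 ± 2.55 to 9.07 ± 2.23 (SD, n = 4). The mean log2 difference within mice was 0.39 ± 0.20 (SD, n = 4), and with 4 pairs an exact 2-sided permutation test cannot give a p below 0.1, so the ratio is given as a description. With coding transcript lengths the means were 5.30 and 6.54, and the direction was the same. The numerator includes *Fcgr4*, whose level the sort sets, and without it the ratio was 7.07 ± 1.49 in FCGR4+ and 6.43 ± 2.34 in FCGR4- cells, higher in mice 2, 3, and 4 and lower in mouse 1.

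*Fcgr4* supplied 21.4% ± 3.95 of the summed level per kb of the activating receptors in FCGR4+ and 9.85% ± 1.49 in FCGR4- cells. *Fcgr3* supplied 63.5% ± 10.2 and 75.0% ± 10.6, and *Fcgr1* 15.2% ± 8.32 and 15.1% ± 9.34. These shares describe the sorted cells and are no separate result, since the sum holds *Fcgr4*, by whose protein the cells were divided, and the level of *Fcgr3* itself was higher in FCGR4+ cells of 4 of 4 mice. *Fcgr3* was the largest of the 3 in both populations. The γ chain was measured against the receptors it serves. Its level per kb over that of the 3 activating receptors was 1.63, 1.85, 2.45, and 2.04 in FCGR4+ and 2.03, 2.55, 2.56, and 2.23 in FCGR4- libraries, lower in FCGR4+ cells of 4 of 4 mice. This direction rested on the gene of the sort, because over *Fcgr1* and *Fcgr3* alone the ratio was 2.19, 2.20, 3.11, and 2.64 in FCGR4+ and 2.20, 2.80, 2.89, and 2.50 in FCGR4- libraries, higher in mice 3 and 4 and lower in mice 1 and 2.

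**Figure D4:**
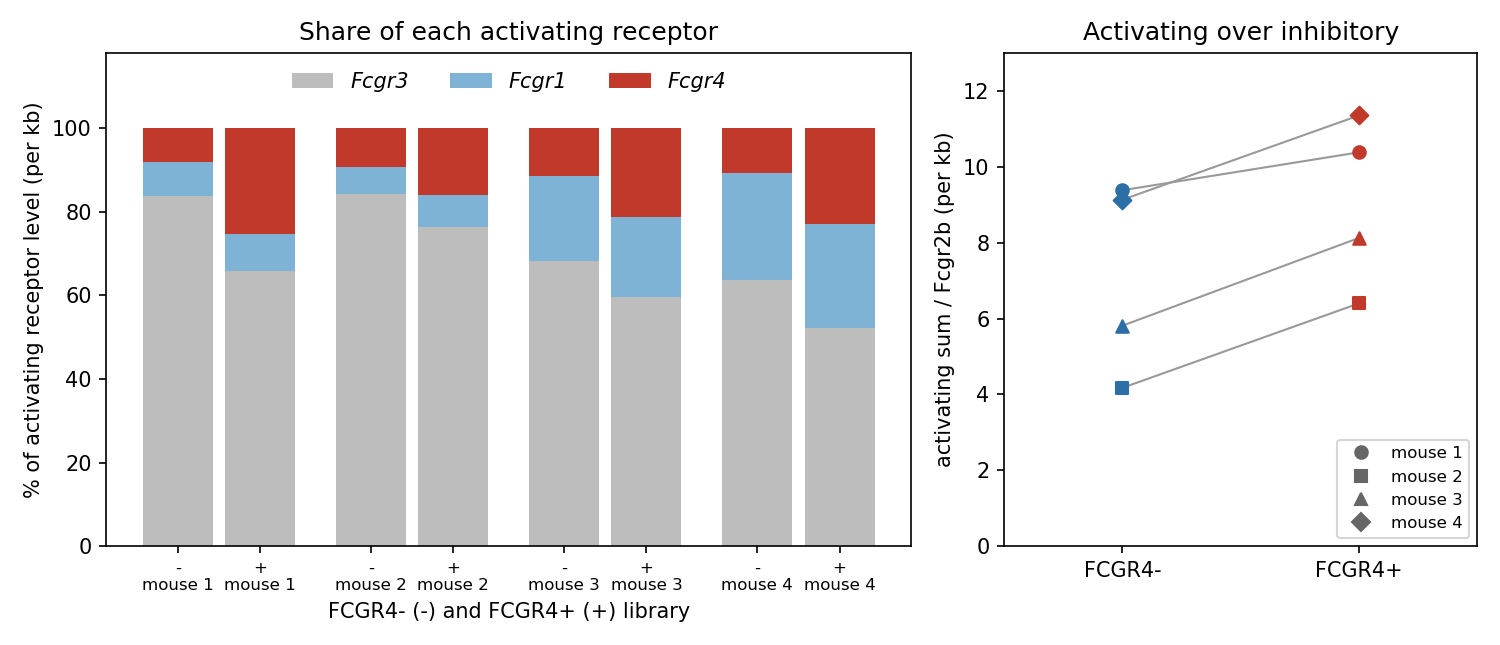
Left, share of *Fcgr3*, *Fcgr1*, and *Fcgr4* in the summed level per kb of activating receptors (y axis, %) in each library, by mouse. Right, the ratio of that sum to *Fcgr2b* (y axis), with lines joining libraries of the same mouse, which rise from FCGR4- to FCGR4+ cells in 4 of 4 mice with *Fcgr4*, the gene of the sort, in the sum.

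The members on chromosome 1 lie in a stretch of 17 annotated genes, from *Fcgr2b* to *Fcer1g*, of which 8 were tested. Only *Fcgr4* passed. *Cfap126*, *Sdhc*, *Pcp4l1*, and *Tomm40l*, which lie between *Fcgr3* and *Fcer1g*, had log2 fold changes of 0.14, 0.18, 0.56, and 0.24 and adjusted p of 0.936, 0.712, 0.490, and 0.683. *Rcn3*, 768 bases from *Fcgrt*, was at -0.44 (adjusted p = 0.510).

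The remaining genes of the pathway were grouped into 8 lists of 93 genes, of which 84 were tested. In edgeR's paired test none was higher in FCGR4+ cells and *Fcer1a* and *Ms4a2* were lower, 2.38% of those tested, beside 1.27% of all genes. DESeq2 called 16 of them, 5 higher and 11 lower, beside 5.99% of all genes, and those higher included *Il10*, *B2m*, *Tgfbr1*, and *Lilra5*. The median log2 fold change was -0.11 over the lists and -0.00 over all genes tested.

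Among 13 other genes of Fc receptors, Fc receptor-like proteins, and immunoglobulin receptors, 10 were tested, with a median log2 fold change of -1.23. That median covers *Fcer1a*, *Ms4a2*, and genes of low level, such as *Fcer2a* at 0.263 and 0.674 normalized CPM. For the more abundant *Fcrls* and *Fcrl1* the log2 fold changes were -0.13 and 0.30. *Fcrls*, an Fc receptor-like scavenger gene of macrophages, was the most abundant at 73.1 ± 30.1 in FCGR4+ and 79.0 ± 27.0 normalized CPM in FCGR4- cells (adjusted p = 0.855). *Fcrl1* was at 12.3 ± 5.80 and 9.26 ± 2.32 (adjusted p = 0.741). *Fcamr* and *Fcrl6* had 0 counts in every library. Of 4 IgG heavy chain genes, which encode the ligands, only *Ighg2b* had enough counts for a test, at 0.118 ± 0.139 in FCGR4+ and 1.83 ± 3.19 normalized CPM in FCGR4- cells (adjusted p = 0.645). The highest FCGR4- library held 6.61 normalized CPM. The log2 fold change of *Ighg2b* was -2.62 with all mice, -1.15 without mouse 4, and -4.68 without mouse 2. *Ighg1* and *Ighg3* had 0 counts in FCGR4+ libraries, where 3 counts would be 0.0479 to 0.0624 normalized CPM.

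Other receptors that signal through the γ chain were 11, of which 8 were tested and none passed, with a median log2 fold change of -0.73. *Clec4e*, the Mincle receptor for mycobacterial and dead-cell glycolipids, averaged 226 ± 64.3 normalized CPM in FCGR4+ and 711 ± 644 in FCGR4- cells (log2 fold change -1.13, adjusted p = 0.605). This value rested on single mice, with a log2 fold change of -0.53 without mouse 2, -0.62 without mouse 3, and -1.88 without mouse 1. *Pira2* (151 ± 67.3 against 216 ± 101, adjusted p = 0.436), *Clec4n*, which encodes Dectin-2 (52.6 ± 27.9 against 185 ± 184, adjusted p = 0.432), and *Clec4d* (64.6 ± 34.1 against 116 ± 82.6, adjusted p = 0.330) were also measured. *Clec4n* and *Clec4d* had adjusted p of 0.0253 and 0.0466 in DESeq2, and with no filter on low counts *Clec4e*, *Clec4n*, and *Clec4d* had 0.0486, 0.00144, and 0.0378. *Lilra5* was the only gene of this list at a higher level in FCGR4+ cells of 4 of 4 mice, at 8.52 ± 5.61 against 4.93 ± 2.64 normalized CPM (adjusted p = 0.233), and it was named after its values were seen. Of the 3 other ITAM adaptor chains, *Tyrobp*, the DAP12 gene, was at 1778 ± 371 and 1590 ± 142 normalized CPM (adjusted p = 0.744) and *Hcst* at a log2 fold change of 0.12 (adjusted p = 0.855). *Cd247*, the ζ chain of T and NK cells, was at 0.348 ± 0.275 and 1.81 ± 1.16 (adjusted p = 0.167, and 0.000882 in DESeq2).

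Of the machinery downstream of the receptors, all 30 kinases and signal carriers were tested and none passed, with a median log2 fold change of -0.11. With each mouse left out, 0 to 1 of them passed, as lower in FCGR4+ cells. *Lat*, named after its values were seen, lay furthest from 0, at 0.703 ± 0.390 and 3.03 ± 1.13 normalized CPM (log2 fold change -2.28, adjusted p = 0.140). Among the most abundant were the Src family kinase *Lyn* (log2 fold change 0.21, adjusted p = 0.701), the protein kinase C gene *Prkcd* (-0.13, adjusted p = 0.755), and *Syk* (-0.22, adjusted p = 0.676). All 10 phosphatases and brakes were tested and none passed, with a median of -0.037. *Ptpn6*, which encodes SHP-1, was at -0.094 (adjusted p = 0.859), *Dok2* at -0.075 (adjusted p = 0.860), and *Inpp5d*, which encodes the SHIP1 that FCGR2B recruits, at -0.16 (adjusted p = 0.777).

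Finally, 21 cytokines, receptors, and factors known to set Fc receptor transcription were all tested and none passed, with a median of -0.052. *C5ar1*, the C5a receptor gene, was at 875 ± 178 normalized CPM in FCGR4+ and 908 ± 166 in FCGR4- cells (adjusted p = 0.933). *Ifngr1*, for the interferon-γ receptor, was at a log2 fold change of -0.034 (adjusted p = 0.949), and *Stat6*, which carries the IL-4 signal, at 217 ± 87.8 and 263 ± 30.5 (adjusted p = 0.634). Genes higher in FCGR4+ cells of 4 of 4 mice, named after their values were seen, included *Il10* (63.7 ± 24.9 against 35.4 ± 19.0 normalized CPM, adjusted p = 0.126) and *Tgfbr1* (107 ± 31.4 against 76.8 ± 28.1, adjusted p = 0.303).

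**Figure D5:**
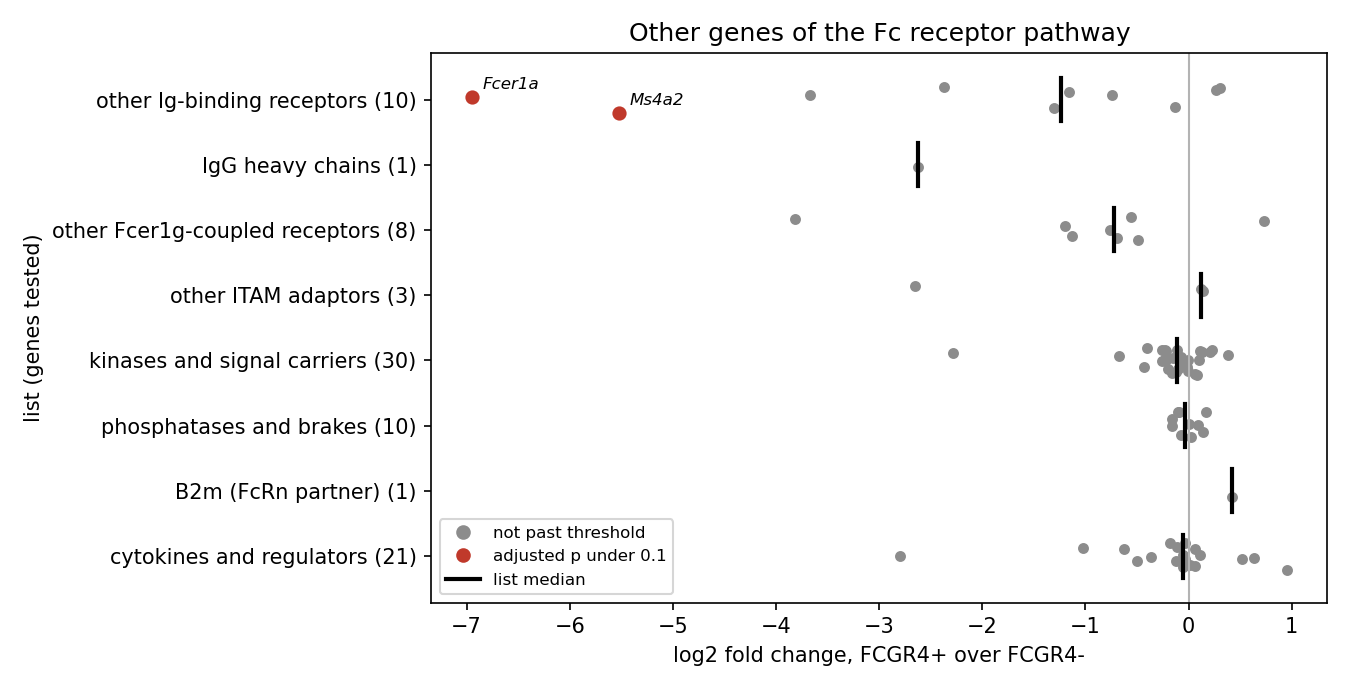
Log2 fold change of FCGR4+ over FCGR4- cells (x axis) of the tested genes in each of 8 lists (rows, number tested in brackets), with genes past an adjusted p of 0.1 in red, others in grey, and list medians as black bars. *Fcer1a* and *Ms4a2* are the only red points, and the medians of the kinases and of the phosphatases are -0.11 and -0.037. In the row of the kinases and signal carriers, *Lat* lies at -2.28.

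The genes whose log2 level followed each member most closely over the 8 libraries were taken from 8088 tested genes with a mean of at least 10 normalized CPM. For *Fcgr4* they were *Lap3* (Pearson r 0.94), *Pole3* (0.93), and *Ocrl* (0.93). For *Fcgr1* they were *Nmi* (0.99), *Pnp* (0.99), and *Ms4a6c* (0.98), and for *Fcer1g*, *Gm5527* (0.99), *Lst1* (0.98), and *Ccl8* (0.98). *Fcgr2b* was followed by *Arhgap24* (0.97), *1700123O20Rik* (0.96), and *AB124611* (0.96). *Fcgr3* was followed by *Tmem221* (0.96), *Ppt2* (0.94), and *Dusp23* (0.91), and *Fcgrt* by *Abhd16a* (0.94), *Epor* (0.91), and *Tmem176b* (0.91). *Ccl8*, a chemokine gene, was the only one of these 18 genes past the threshold (log2 fold change 1.32, adjusted p = 0.0994). Libraries of the same mouse share that mouse, so these values describe 8 libraries and carry no test.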

How the data were processed

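The authors mapped read pairs to mm10 with STAR and counted them on GENCODE M18 genes with featureCounts 1.6.3, per the file header. The deposited values are these raw counts, with pairs mapping to several places counted at each and strand not used. All per-sample columns were used. Total counts were 35992794 to 66856746 per library.

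Genes that reached 10 counts in 4 or more of the 8 libraries were tested with edgeR 4.0.16 in R 4.3.3 (TMM factors 0.937 to 1.11, quasi-likelihood test, mouse as a block, Benjamini-Hochberg adjustment, threshold 0.1). DESeq2 1.42.0, the tool of the study's methods, was an alternative, since edgeR was set as the test for raw counts. The mouse number in the labels pairs the libraries, and deviations of libraries of the same mouse correlated at 0.291 to 0.428. Other alternatives were no replicate block, the newer quasi-likelihood method, other size factors, other filters, a threshold of 0.05, each mouse left out, and each pair of mice alone. Fits were also run on simulated counts that held no difference between mice, so that run does not check the mouse block. Standard errors are the log2 fold change over the square root of the F statistic. Per-mouse ratios used a prior count of 2. Shares of the sum of squares come from log2 levels by mouse and population. Named genes were the members, list genes past the threshold, up to 4 genes per list (those past the threshold, then the most abundant), neighbors of members, and the 3 genes most like each member. The members, 8 pathway lists, and 12 marker lists were chosen with earlier results of these data known. Promoters came from RefSeq, GRCm38.p6, with 6 of 6 members matched, and shared words from GENCODE M21 on the same build. Protein sequences were not used here, and some genes of the lists and neighbors are not reported here.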

Additional observations from a re-analysis of the deposited data

Results flagged for a closer look

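The difference in *B2m* between populations stood apart in mouse 2. The log2 ratio of FCGR4+ over FCGR4- libraries was 0.13 in mouse 2 and between 0.49 and 0.54 in mice 1, 3, and 4, so that the gap of mouse 2 to the nearest mouse was 0.878 of the whole range, above Dixon's critical value for 4 samples. Of 57 groups of 4 values examined in this way, 1 stood apart, where chance gives about 2.85.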

How the results depend on the processing

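The direction of *Fcgr4*, *Fcgr1*, *Fcgr3*, *Fcgr2b*, and *Fcer1g* was the same under all 13 alternatives, and the adjusted p of *Fcgr4* stayed between 2.03e-16 and 0.0897. *Fcgr1* passed with DESeq2 (log2 fold change 0.56, adjusted p = 0.00936) and when low counts were not filtered (0.58, adjusted p = 0.0608), and its adjusted p was 0.00936 to 0.943 over all alternatives. *Fcgrt* turned to -0.00207 with library size alone, to -0.0251 with mice 3 and 4 alone, and lay between -0.0755 and 0.22 with each mouse left out. Library size alone shifted the median of all genes by -0.0893.

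The 217 genes past the threshold (14 higher, 203 lower) became 76 at a threshold of 0.05 (2 higher, 74 lower), 48 with no replicate block (1 higher, 47 lower), 1024 with DESeq2 (192 higher, 832 lower), 632 with the newer quasi-likelihood method (57 higher, 575 lower), 1054 with no filter on low counts (159 higher, 895 lower), 113 with mice 1 and 2 alone (7 higher, 106 lower), 113 with mice 3 and 4 alone (29 higher, 84 lower), and 84 to 163 with each mouse left out (84 without mouse 1, 127 without mouse 2, and 91 without mouse 4), of which 2 to 9 were higher. Library size alone gave 8 higher and 236 lower. The 2 pathway genes became 1 with no replicate block, 16 with DESeq2 (5 higher), 6 with the newer method (1 higher), 15 with no filter (2 higher), 1 with at least 10 counts in every library (1 higher), 1 with mice 3 and 4 alone, and 1 to 3 with each mouse left out, 1 without mouse 1. The adjusted p of *Ms4a2* was 0.362 with no replicate block, 0.102 without mouse 1, and 0.120 with mice 3 and 4 alone. The cause was not tested.

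Signs also turned for genes below the threshold. With mice 1 and 2 alone the log2 fold change was -0.22 for *Fcrl1*, 0.00653 for *Ighg2b*, -0.0318 for *Tyrobp*, -0.11 for *Hcst*, 0.0453 for *Prkcd*, 0.10 for *Syk*, 0.22 for *Ptpn6*, 0.23 for *Inpp5d*, 0.37 for *C5ar1*, 0.21 for *Ifngr1*, 0.0642 for *Spi1*, and 0.12 for *Stat6*. With mice 3 and 4 alone it was 0.18 for *Fcrls* and -0.16 for *Lyn*, and with no replicate block 0.00932 for *Ifngr1*. With each mouse left out it ranged from -0.39 to 0.11 for *Fcrls*, -0.10 to 0.32 for *Hcst*, -0.21 to 0.0484 for *Ptpn6*, -0.18 to 0.00109 for *Dok2*, -0.25 to 0.0841 for *C5ar1*, and -0.17 to 0.0771 for *Ifngr1*. The length of the longest coding transcript was tried after the data had been seen, and both ratios kept their direction with it. The ratios without *Fcgr4* were added in the same way, and the mean log2 difference between populations fell from 0.39 to 0.19 for activating over *Fcgr2b* and moved from -0.24 to -0.0436 for *Fcer1g* over activating receptors. At the depth of these libraries every member had at least 1774 counts in each.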
